A study of Mus musculus with 6 samples.

Results

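The Nodal pathway genes Nodal, Tdgf1, Lefty1 and Lefty2 were examined in whole fetal mouse testes of stage E12.5 (embryonic day). These 4 genes were chosen by symbol among the 24470 genes of the RNA-seq count table, and all 4 passed the filter on low counts, which left 15577 genes. The 3 control samples had the genotype Ppp1r3c f/f, and the 3 Ppp1r3c cKO (conditional knockout) samples had the genotype Sf1-Cre Ppp1r3c f/f. Both groups thus carried the floxed Ppp1r3c alleles on a C57BL/6 background, and only the cKO embryos carried Cre, which is driven by Nr5a1 (Sf1) sequences and is active in somatic gonadal cells, including Sertoli cell progenitors. No Cre-positive sample without floxed alleles was analysed here. Each sample pooled 2 gonad pairs, and Ppp1r3c encodes a glycogen-targeting regulatory subunit of a protein phosphatase.

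Nodal is a secreted ligand of the TGF-beta family. It binds activin receptors together with the coreceptor Cripto, encoded by Tdgf1, and acts through SMAD2 and SMAD3 with the DNA-binding partner FOXH1. Lefty1 and Lefty2 encode secreted inhibitors that block Nodal signaling and are themselves induced by it, so that the pathway limits itself. In the fetal testis this pathway is known to be active for a short time in XY germ cells, where it is linked to pluripotency genes and to the timing of male germ cell differentiation. Ddx4 (an RNA helicase) and Dazl (an RNA-binding protein), both restricted to germ cells in the gonad, served as the germ cell reference.

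Library totals ranged from 16139487 counts (control replicate 1) to 44145158 counts (control replicate 2). The targeted gene Ppp1r3c was at 24.4, 22.1 and 22.9 CPM (counts relative to the scaled total of their library) in the controls and at 4.71, 5.37 and 5.96 CPM in the cKO samples, in the direction of the labels (log2 fold change -2.11, SE 0.111, edgeR FDR 0.000126). One library stood apart. In cKO replicate 3, Xist, an RNA of the inactive X chromosome of XX cells, was at 379 CPM against at most 1.0004 CPM elsewhere. Genes of pre-granulosa cells, such as Foxl2 (7.56 CPM against 0.431 to 1.22) and Fst (50.9 CPM against 0.366 to 2.02), were also highest there, and the 5 pre-granulosa markers summed to 228 CPM against 59.7 to 74.8 CPM elsewhere. Results are given with this library and, for the members, without it, and the part of these cells in the results was not tested otherwise. The Sertoli markers Sox9 and Amh and the germ cell genes were detected in all 6 samples.

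In cKO testes all 4 members were measured at about 0.5 of the control level, and so were both germ cell genes. The fold of the means (cKO over control) was 0.523 for Nodal, 0.488 for Tdgf1, 0.520 for Lefty1 and 0.526 for Lefty2, beside 0.533 for Ddx4 and 0.543 for Dazl. edgeR called none of the 4 members (0 of 4) at an adjusted p (FDR) under 0.05 over all genes, where it called 0.0385% of the genes tested and 0.00642% as lower. DESeq2 called Nodal and Tdgf1 (2 of 4), where it called 0.779% of its genes, and 0.379% as lower. Relative to Ddx4 and Dazl in the same library, the members differed between the groups by less than the SE of that difference.

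Nodal, the ligand, lies on the plus strand of chromosome 10 (mm10, 61417972 to 61425337). Its counts ranged from 88 to 412 in control and from 95 to 216 in cKO samples. Scaled for depth, this was 5.42, 9.33 and 9.34 CPM in control samples and 5.39, 2.64 and 4.57 CPM in cKO samples. The groups did not overlap, but control replicate 1 and cKO replicate 1 were close and lay within each other's counting interval. For Nodal the log2 fold change was -0.95 (SE 0.279, edgeR p 0.00714, FDR 0.377), between means of 8.03 ± 2.26 and 4.20 ± 1.41 CPM (SD, n = 3 each). The lowest count, 88 in control replicate 1, has an exact 95% Poisson interval of 70.6 to 108 counts, or 4.35 to 6.67 CPM.

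The letters upstream of Nodal and Tdgf1 are shown because Nodal is known to act on its own gene through FOXH1 and the SMADs, which read short DNA motifs. The RefSeq promoter table (GRCm38.p6, 250 bases before to 50 bases after the start site) held both genes. The Nodal window is chr10:61417722-61418021 on the plus strand and the Tdgf1 window is chr9:110946109-110946408 on the minus strand. Both strands were searched for TGTGGATT, which is known for FOXH1, and for the looser TGTNNATT. The looser form includes TGTGGATT but leaves its 2 middle letters open, so a match to it is not a known FOXH1 site. They were also searched for the SMAD letters GTCTAGAC and GTCTG, the octamer ATTTGCAT, the promoter element TATAAA, and the letters GGGCGG and CCACGCCC, which SP and KLF factors can read. Capitals mark matches to all but GGGCGG, which is left in lower case.
Nodal: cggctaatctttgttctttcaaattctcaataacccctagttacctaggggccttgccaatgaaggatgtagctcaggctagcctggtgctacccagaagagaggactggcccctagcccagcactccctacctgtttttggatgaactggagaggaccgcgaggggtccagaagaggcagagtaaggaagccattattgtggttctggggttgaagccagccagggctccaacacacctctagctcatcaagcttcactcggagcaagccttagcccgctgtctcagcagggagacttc
Tdgf1: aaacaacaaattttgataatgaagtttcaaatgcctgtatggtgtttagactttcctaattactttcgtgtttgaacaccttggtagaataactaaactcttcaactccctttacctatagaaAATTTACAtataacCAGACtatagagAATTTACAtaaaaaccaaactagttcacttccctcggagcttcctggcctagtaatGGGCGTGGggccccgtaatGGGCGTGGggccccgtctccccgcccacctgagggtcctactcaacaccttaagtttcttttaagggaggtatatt
The Nodal window held none of these motifs. Letters outside the windows, such as the rest of each gene and sites further upstream, were not searched. The Tdgf1 window held TGTNNATT at 2 places, spelled TGTAAATT on the strand opposite to the gene, with GTCTG between them. Their first letters lay 127, 113 and 101 bases before the start site. TGTAAATT differs from TGTGGATT at the 2 middle letters. It also held CCACGCCC at 2 places, 45 and 26 bases before the start site, and GGGCGG at 1 place. Of 32851 promoter windows, 12.2% held TGTNNATT, 49.6% held GTCTG, 5.33% held CCACGCCC and 35.7% held GGGCGG. At least 2 copies of TGTNNATT together with GTCTG were held by 0.612%. That combination is the one seen in the Tdgf1 window itself, so its share is no test of that window. The stricter TGTGGATT, held by 0.855% of windows, matched neither gene, nor did GTCTAGAC (0.213%), ATTTGCAT (1.74%) or TATAAA (13.6%). The matches did not overlap each other and are a description of letters, not of binding.

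Tdgf1, the coreceptor, lies on the minus strand of chromosome 9 (mm10, 110939608 to 110946158). Its counts were 89, 363 and 271 in control and 193, 67 and 107 in cKO samples. Its levels were 5.48, 8.22 and 6.61 CPM in control samples and 4.81, 1.86 and 3.24 CPM in cKO samples. Every cKO sample was thus below every control sample, but control replicate 1 and cKO replicate 1 lay within each other's counting interval. The log2 fold change was -1.04 (SE 0.302, edgeR p 0.00678, FDR 0.377), the largest in size of the 4 members, between means of 6.77 ± 1.37 and 3.304 ± 1.48 CPM (SD, n = 3 each). Of the windows of 1 read length in its transcript, 0.224% occurred in another annotated transcript, that of the pseudogene Tdgf1-ps1, and none did for the other 3 members.

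Lefty1 and Lefty2, the inhibitors, lie on the plus strand of chromosome 1, Lefty2 from 180893108 to 180899107 and Lefty1 from 180935039 to 180938401 (mm10). They are 35.9 kb apart with 1 gene of the table between them. Their coding sequences (GENCODE M21, 1104 bases each) matched at 91.8% of positions, with 90 mismatches, no gap and a longest identical stretch of 140 bases. This is shorter than the sequenced reads, so that no full-length read within the coding part fits both paralogs equally. The 120-base stretch with most mismatches is shown to let the paralogs be compared. It covers coding bases 46 to 165 in exon 1 of each gene, at chr1:180935155-180935274 in Lefty1 and chr1:180893229-180893348 in Lefty2 (mm10, plus strand). Capitals mark the 34 positions at which they differ.
Lefty1: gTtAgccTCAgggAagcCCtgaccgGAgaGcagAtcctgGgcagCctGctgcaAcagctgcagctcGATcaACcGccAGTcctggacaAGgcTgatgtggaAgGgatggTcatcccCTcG
Lefty2: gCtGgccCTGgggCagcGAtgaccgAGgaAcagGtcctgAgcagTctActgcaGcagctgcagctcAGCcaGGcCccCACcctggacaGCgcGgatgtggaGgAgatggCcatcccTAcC

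Lefty1 was at 11.6, 17.6 and 20.03 CPM in control samples and at 13.4, 4.78 and 7.38 CPM in cKO samples. The groups overlapped, since cKO replicate 1 lay above control replicate 1. For Lefty1 the log2 fold change was -0.96 (SE 0.327, edgeR p 0.0163, FDR 0.380), with means of 16.4 ± 4.35 and 8.52 ± 4.42 CPM (SD, n = 3 each). Lefty2 was at 43.4, 65.7 and 74.8 CPM in control samples and at 42.7, 21.0 and 32.9 CPM in cKO samples. The groups did not overlap, although control replicate 1 and cKO replicate 1 were close. For Lefty2 the log2 fold change was -0.94 (SE 0.248, edgeR p 0.00406, FDR 0.377), with means of 61.3 ± 16.1 and 32.2 ± 10.8 CPM (SD, n = 3 each).

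In the germ cell genes, too, control replicates 2 and 3 were highest and cKO replicate 2 was lowest. Ddx4 was at 54.7, 109 and 117 CPM in control samples and at 61.0, 33.5 and 54.8 CPM in cKO samples, and Dazl was at 173, 257 and 304 CPM in control and at 195, 76.4 and 127 CPM in cKO samples. Their groups overlapped, since cKO replicate 1 lay above control replicate 1 for both genes. The log2 fold change was -0.92 for Ddx4 (SE 0.279) and -0.88 for Dazl (SE 0.299), each at an edgeR FDR of 0.377. In a wider list of 9 germ cell genes, edgeR called 0 and DESeq2 called 3 lower, where DESeq2 called 0.379% of its genes as lower. The median log2 fold change was -0.92, with 8 genes below 0 and 1, Taf7l, at 0.47. In RNA counts of whole testes, fewer germ cells and less RNA per germ cell cannot be told apart. By whole-mount staining, the authors reported significantly fewer germ cells in cKO testes at E12.5. Germ cells were not counted in these libraries.

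**Figure D1:**
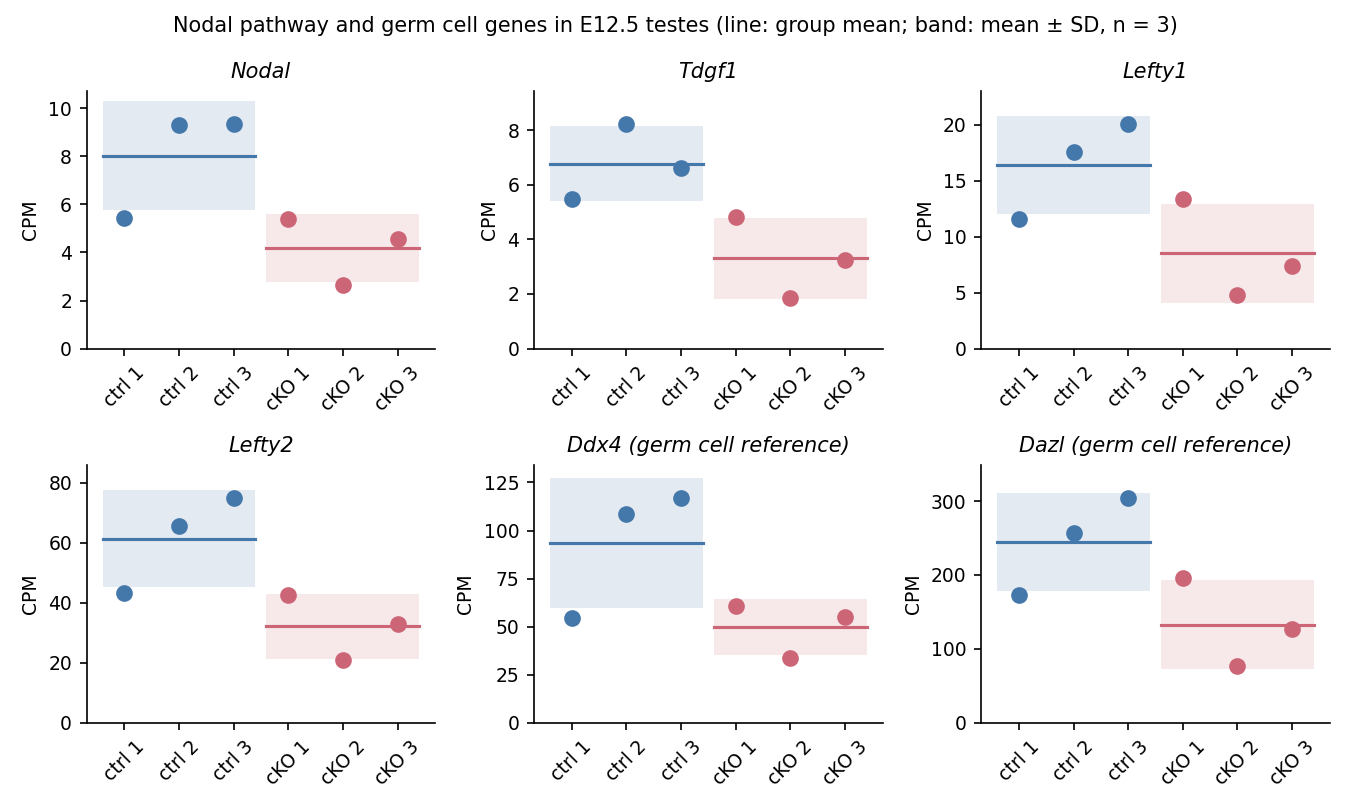
Levels in CPM (vertical axis, linear, from 0) of the 4 Nodal pathway genes and of Ddx4 and Dazl in each of the 3 control and 3 cKO samples, with the group mean as a line and mean ± SD as a band. In every panel cKO replicate 2 is lowest and control replicates 2 and 3 are highest, and control replicate 1 lies near cKO replicate 1.

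At an unadjusted edgeR p under 0.05 there were 4 of 4 members, where 5.80% of all genes were lower and 5.56% higher at that threshold. The groups did not overlap, with cKO lower, for 3 of 4 members (Nodal, Tdgf1 and Lefty2) against 7.17% of all genes. In each of these 3, control replicate 1 and cKO replicate 1 lay within each other's counting interval. Ddx4 and Dazl passed the same unadjusted threshold (edgeR p 0.00874 and 0.0154), so the members share it with the germ cell reference. A log2 fold change at or below that of Lefty2, the member nearest 0, was found for 1.06% of all genes. The exact two-sided permutation p of log2 CPM was 0.1 for Nodal, Tdgf1 and Lefty2, the smallest that 3 against 3 samples can give, and 0.2 for Lefty1. DESeq2 gave Nodal an FDR of 0.0464 and Tdgf1 an FDR of 0.0444, both near the threshold, and gave Lefty2 0.218 and Lefty1 0.446. Ddx4 (-0.91, SE 0.412, FDR 0.356) and Dazl (-0.88, SE 0.433, FDR 0.425) were not called by DESeq2. Their log2 fold changes were near those of Nodal (-0.95, SE 0.262) and Tdgf1 (-1.04, SE 0.284) in that fit, while their SEs were larger. Without cKO replicate 3 the DESeq2 calls of Nodal and Tdgf1 were lost (FDR 0.293 and 0.365), while the DESeq2 log2 fold changes were -1.01 and -1.02. Without that library edgeR gave -1.02 for Nodal, -1.03 for Tdgf1, -0.86 for Lefty1 and -0.95 for Lefty2, each at an edgeR FDR of 0.633. The calls were also lost without control replicate 2 (0.646 and 0.672) and without cKO replicate 2 (0.263 and 0.216), and were kept without control replicate 1 (0.00741 and 0.0397) and without cKO replicate 1 (0.0120 and 0.00046). Without control replicate 3 DESeq2 gave them no adjusted p.

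To set the members against the germ cells of the same library, each count was divided by the summed count of Ddx4 and Dazl. Nodal had 2.38, 2.55 and 2.22 counts per 100 reference counts in control samples and 2.10, 2.40 and 2.51 in cKO samples. The groups overlapped fully, and the log2 ratio differed by -0.03 (SE 0.0964) between cKO and control (exact permutation p 0.7). The CPM of Nodal spanned a 3.54-fold range over the 6 samples, whereas its ratio to the germ cell genes spanned a 1.21-fold range. In control replicate 1 and cKO replicate 2, the samples with the fewest Nodal counts, the exact 95% counting intervals were 1.90 to 2.94 and 1.94 to 2.95 per 100, wide enough to hold the ratio of each other sample. These intervals cover counting error only.

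Lefty2, the most deeply counted member, gave the most precise ratios. It had 19.1, 17.9 and 17.8 counts per 100 reference counts in control samples and 16.6, 19.1 and 18.1 in cKO samples. The log2 ratio differed by -0.03 (SE 0.0664, exact permutation p 0.9), and the 6 ratios spanned a 1.149-fold range against 3.56-fold for its CPM. Lefty1 had 5.08, 4.80 and 4.77 counts per 100 in control and 5.22, 4.35 and 4.06 in cKO samples. Its groups overlapped, since cKO replicate 1 was the highest and the other two cKO samples the lowest, and its log2 ratio differed by -0.11 (SE 0.112, exact permutation p 0.4).

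Tdgf1 had the widest spread, with 2.41, 2.24 and 1.57 counts per 100 reference counts in control samples and 1.88, 1.69 and 1.78 in cKO samples. Control replicate 3 was lowest and control replicates 1 and 2 were highest. Its counting interval in control replicate 3, 1.39 to 1.77, lay below those in control replicate 1 (1.93 to 2.97) and control replicate 2 (2.02 to 2.49), so that the controls differed among themselves by more than counting error. The log2 ratio differed by -0.19 (SE 0.195, exact permutation p 0.4) between the groups. Without control replicate 3 it was -0.38, with all cKO samples below the 2 remaining controls (exact permutation p 0.1, the smallest possible for these 5 samples). Without control replicate 1 it was -0.071. Lefty1 reached the same exact permutation p of 0.1 without cKO replicate 1, at -0.21, with the remaining cKO samples below all controls. Without cKO replicate 3 the log2 ratio differed by -0.08 for Nodal, -0.19 for Tdgf1, -0.03 for Lefty1 and -0.03 for Lefty2. With all 6 samples each of the 4 differences was smaller than its SE. The permutation tests could not go below 0.1 in this design, so their p-values do not show that the ratios are equal.

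**Figure D2:**
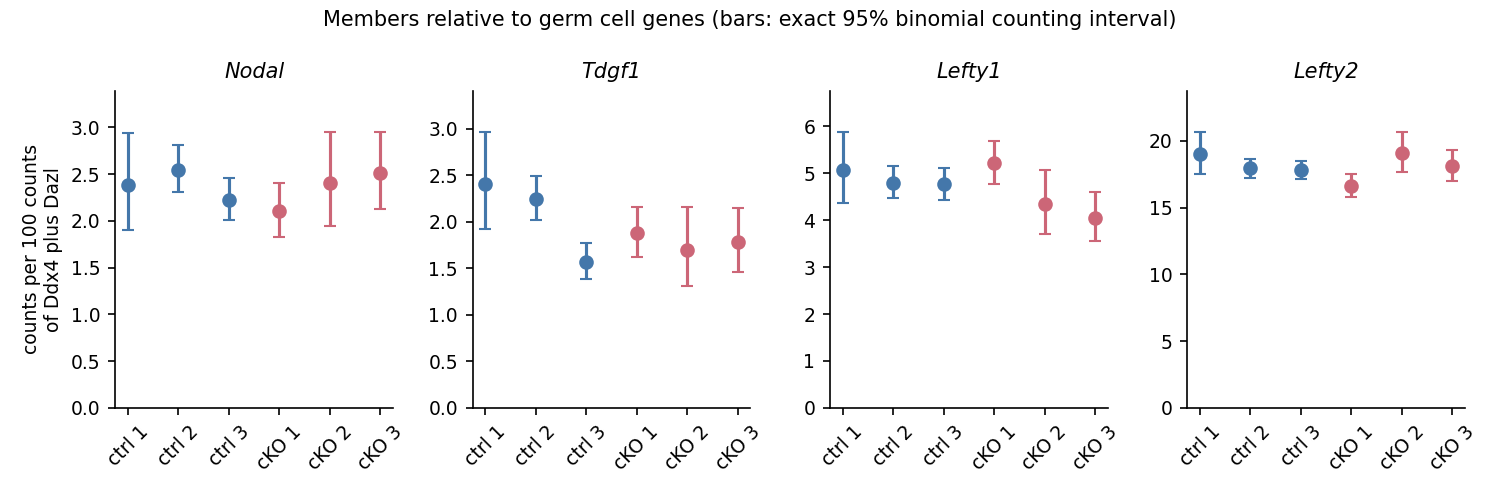
Counts of each member per 100 counts of Ddx4 plus Dazl (vertical axis, linear, from 0) in the 6 samples, with exact 95% binomial counting intervals as bars. Nodal lies between 2.10 and 2.55 and Lefty2 between 16.6 and 19.1 in all samples, with the groups overlapping in each panel.

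The members were also compared with each other. Per kilobase of exon, a scale on which levels of different genes can be compared, Lefty2 was highest, at 24.8 ± 6.53 CPM per kb in control and 13.03 ± 4.38 in cKO testes (SD, n = 3 each). Lefty1 followed at 10.1 ± 2.69 and 5.26 ± 2.73 CPM per kb, then Nodal at 3.83 ± 1.08 and 2.004 ± 0.673, and Tdgf1 at 3.50 ± 0.712 and 1.71 ± 0.764. Within each of the 6 samples the level of Lefty2 was 2.09 to 2.92 times that of Lefty1, and that of Lefty1 was 2.09 to 3.22 times that of Nodal. Nodal and Tdgf1 were not separated, with a ratio of Tdgf1 to Nodal per kb between 0.765 and 1.097 and Tdgf1 higher in 1 of 6 samples.

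Ratios between members bear no scaling by library size. Lefty2 had 8.01, 7.05 and 8 counts for each Nodal count in control samples and 7.92, 7.96 and 7.21 in cKO samples (log2 difference 0.0021, exact permutation p 1). Lefty1 made up 21.1% of the summed Lefty1 and Lefty2 counts in each control sample, and 23.9%, 18.5% and 18.3% in the cKO samples. The cKO samples thus lay on both sides of the controls. The exact 95% interval of cKO replicate 1 (22.1% to 25.7%) did not overlap those of cKO replicates 2 (16.1% to 21.2%) and 3 (16.3% to 20.5%), and the log2 ratio of Lefty1 to Lefty2 differed by -0.09 between the groups (exact permutation p 0.5).

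The rest of the pathway was described from a list of 26 genes, of which 22 were tested. edgeR called 0 of 22 and DESeq2 called 2, both lower, Foxh1 among them, where DESeq2 called 0.379% of its genes as lower. Genes without overlap of the groups numbered 5 of 22 with cKO higher and 3 with cKO lower, beside 15.6% of all genes over both directions. At an unadjusted edgeR p under 0.05 there were 6 of 22, 3 lower and 3 higher, against 11.4% of all genes. The median log2 fold change was 0.06, or 0.04 without control replicate 3, beside -0.0034 over all genes tested. Those at lower values included the ligand gene Gdf3 and the SMAD partner Foxh1.

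Foxh1 was at 11.6, 18.9 and 17.3 CPM in control samples and at 11.02, 6.15 and 9.20 CPM in cKO samples, with no overlap. Its log2 fold change was -0.87 (SE 0.226), with an FDR of 0.377 by edgeR and 0.0109 by DESeq2. Gdf3 was at 4.31, 6.72 and 5.05 CPM in control and at 3.34, 2.002 and 3.69 CPM in cKO samples, with no overlap, and its log2 fold change was -0.85 (SE 0.253, edgeR FDR 0.377). DESeq2 did not call Foxh1 without control replicate 2 (FDR 0.463), without cKO replicate 2 (FDR 0.125) or without cKO replicate 3 (FDR 0.162), and called it in 2 of 5 runs.

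Set against Ddx4 plus Dazl, these genes also overlapped between groups, in a ratio that was computed after their values were seen. The log2 ratio differed by 0.06 (SE 0.152, exact permutation p 0.7) for Foxh1 and by 0.07 (SE 0.287, exact permutation p 0.7) for Gdf3. The range over the 6 samples was 1.36-fold for the ratio of Foxh1 against 3.08-fold for its CPM.

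The log2 fold changes of the receptor, convertase and SMAD genes lay between -0.0040 and 0.47. The receptors Acvr1b, Acvr2a and Acvr2b had 0.04 (SE 0.0704), 0.12 (SE 0.0636) and 0.09 (SE 0.0666), none called by edgeR, and Acvr2b had the highest level of the receptors at 26.8 CPM per kb. The type I receptor gene Acvr1c was at 11.3, 16.3 and 10.2 CPM in control and at 17.7, 16.5 and 18.4 CPM in cKO samples, with no overlap. Its log2 fold change was 0.47 (SE 0.163, edgeR FDR 0.380). For Acvr1c it was 0.71 without control replicate 2 and 0.32 without control replicate 3. Among the convertases that process the Nodal precursor, Pcsk6 had 0.19 (SE 0.0634, edgeR FDR 0.377) and Furin 0.13 (SE 0.0631, edgeR FDR 0.473). The SMAD genes Smad2, Smad3 and Smad4 ranged from -0.0040 to 0.09, with Smad4 highest at 39.5 CPM per kb. Their levels give the whole tissue and not germ cells alone.

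The intracellular inhibitor Smad7 had 0.19 (SE 0.0855, edgeR FDR 0.439), or 0.096 without control replicate 2, and Ski, Skil and Pmepa1 lay between -0.01 and 0.06. The corepressor genes Tgif1 and Tgif2 had 0.09 and -0.09, and Drap1, which encodes a repressor that restrains FOXH1, had -0.05 and the highest level of the list at 84.4 CPM per kb. The extracellular antagonist Dand5 had 0.07 (SE 0.176, edgeR FDR 0.912). The other 4 genes did not pass the filter on low counts. They were the second coreceptor Cfc1, with 0 to 3 counts per sample, the antagonist Cer1, the target Gsc and the ligand Gdf1, which was at 0 counts in every sample. The targets Eomes and Mixl1 were tested at levels under 1 CPM in every sample.

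**Figure D3:**
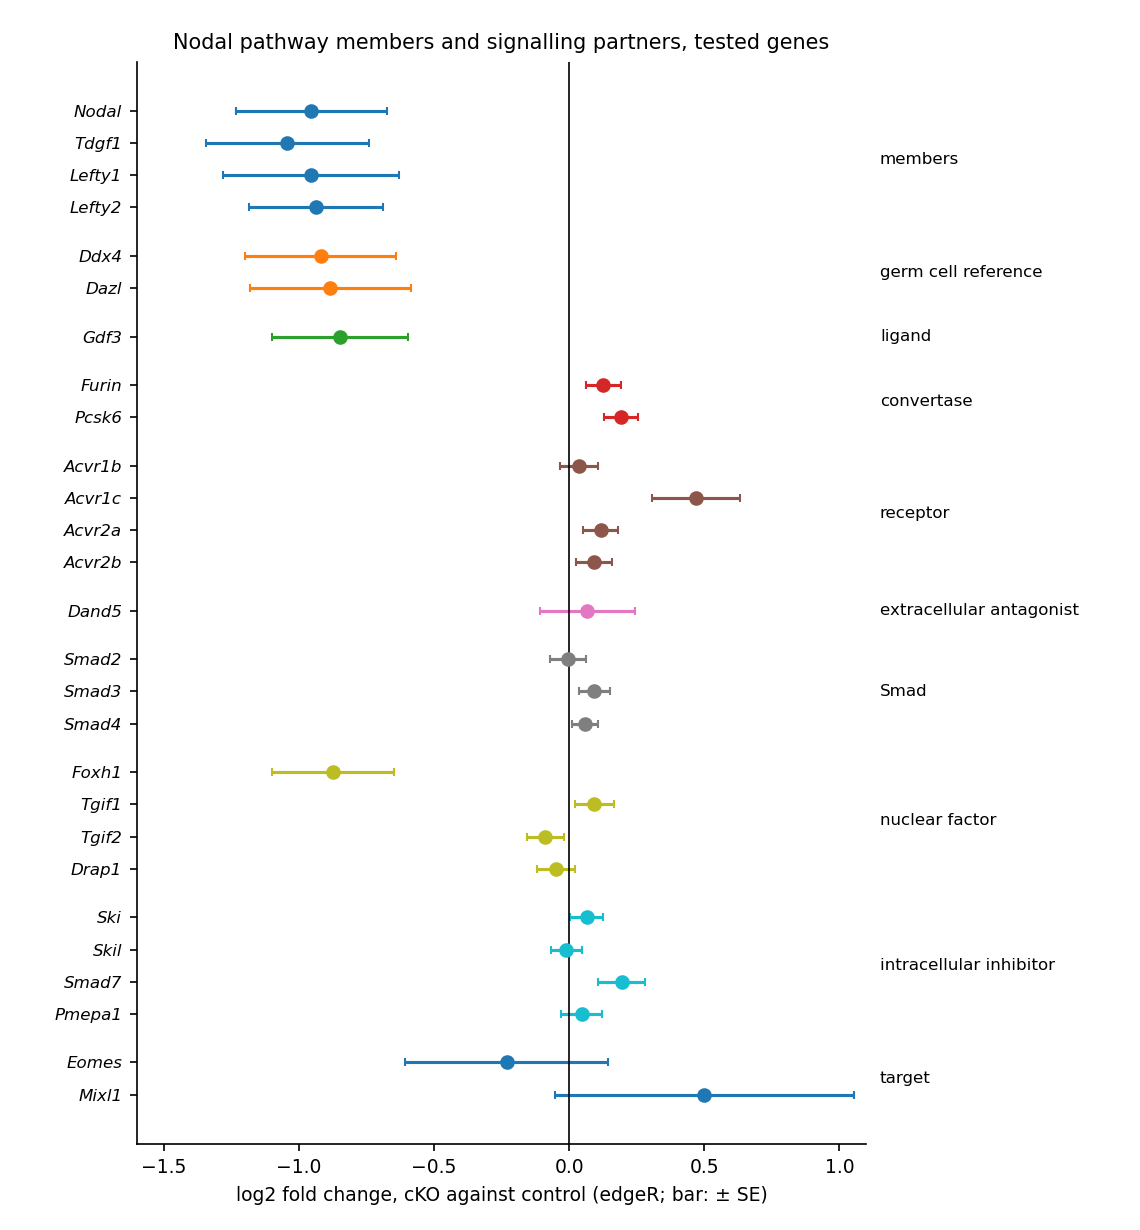
Log2 fold change of cKO against control (horizontal axis, edgeR, bars ± SE) for the 4 members, Ddx4 and Dazl, and tested genes of the partner list, grouped by role. The members, both germ cell genes, Gdf3 and Foxh1 lie between -1.04 and -0.85, while the receptors, SMADs, convertases and intracellular inhibitors lie between -0.01 and 0.47.

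Genes known to act with Nodal signaling in XY germ cells were then listed. Of 10 pluripotency genes, all tested, edgeR and DESeq2 called 0. All 10 had a log2 fold change below 0 (50.9% of all genes did), with a median of -0.80. Of these, 9 had an unadjusted edgeR p under 0.05, where 5.80% of all genes were lower at that threshold. Nanog, a core pluripotency factor, was at 15.6, 29.3 and 27.1 CPM in control and at 17.9, 8.204 and 14.2 CPM in cKO samples. Dppa3 had the lowest p of this list and the highest level per kb, and its log2 fold change was -1.24 (SE 0.271, edgeR FDR 0.377). Fgf9, a Sertoli cell ligand known to act upstream of Nodal in XY germ cells, was at 23.6, 23.7 and 19.6 CPM in control and at 25.3, 26.2 and 22.8 CPM in cKO samples, and its log2 fold change was 0.16 (SE 0.0955, edgeR FDR 0.556). Without control replicate 3 the value for Fgf9 was 0.06.

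Of 7 genes of XY germ cell differentiation, 5 were tested and 0 were called by edgeR or DESeq2. At an unadjusted edgeR p under 0.05, 2 were lower (5.80% of all genes were), and the median log2 fold change was -0.36. This median depended on the samples and the filter. Leaving out cKO replicate 2 gave -0.11, and leaving out the other cKO samples gave -0.55 (replicate 1) and -0.58 (replicate 3). It was -0.68 by DESeq2 and -0.69 with no filter on low counts. The gene of lowest p was Piwil2, a piRNA pathway gene, with -0.84 (SE 0.244, edgeR FDR 0.377). Nanos2, which directs the male fate of germ cells, had 1, 14 and 10 counts in control and 9, 1 and 0 counts in cKO samples, and Dnmt3l, a cofactor of germline DNA methylation, had 0 to 3 counts. These 2 genes did not pass the filter on low counts, and no difference is read from their counts. Of 7 genes of meiotic entry, 5 were tested and 0 were called by edgeR or DESeq2. At an unadjusted edgeR p under 0.05, 3 were lower (5.80% of all genes were). The median log2 fold change was -0.999, with 4 genes below 0 and 1, Rec8, at 0.13. Spo11, which encodes the enzyme of meiotic DNA breaks, was the gene of lowest p, at -1.03 on the log2 scale (SE 0.269, edgeR FDR 0.377). Rec8, which encodes a meiotic cohesin, was at 5.72 CPM per kb in cKO replicate 3, the library with pre-granulosa transcripts, and at 1.43 to 3.33 CPM per kb in the other samples.

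The genes whose profiles over the 6 samples were most like those of the members were found among 15576 tested genes, by the root-mean-square difference of centered log2 CPM. For Nodal these were Dppa5a (0.0613), Nanog (0.0702) and Piwil2 (0.0703), with Lefty2 next (0.0752). For Lefty2 they were L1td1 (0.0584), Zyg11a (0.0670) and Nodal (0.0752). For Lefty1 they were Sycp1 (0.0762), Dazl (0.0815) and Tex14 (0.0858), and for Tdgf1 they were Hormad1 (0.0743), Gpat2 (0.122) and Rbmxl2 (0.125). The median over all genes was 0.625 to 0.724. Nodal and Lefty2 were thus each among the 4 nearest genes of the other. From Nodal, Lefty1 was at rank 107 and Tdgf1 at rank 109, behind the germ cell genes Ddx4 (rank 18) and Dazl (rank 51). From Lefty2, Lefty1 was at rank 73, behind Dazl (rank 14) and Ddx4 (rank 48). All these points share the same 6 libraries, and the measure describes likeness of profile only.

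**Figure D4:**
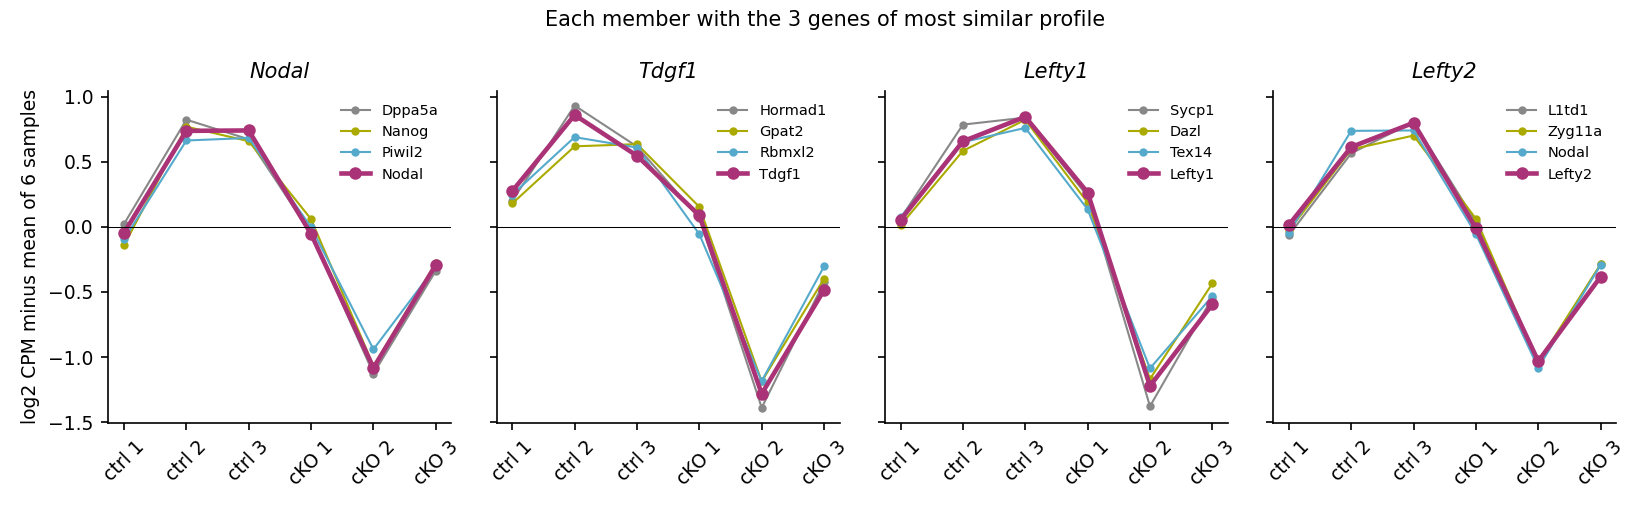
Log2 CPM of each member (thick line) and of the 3 genes of most similar profile (thin lines), minus the mean of the 6 samples (vertical axis, log2, no prior count added), by sample. The thick lines are highest in control replicates 2 and 3 and lowest in cKO replicate 2.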

How the data were processed

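Raw counts of reads per gene were analysed for 3 control and 3 cKO samples of E12.5 testis. To make the deposited counts, the authors prepared stranded mRNA libraries, aligned read pairs to mm10 with STAR and counted them by strand with featureCounts (Subread 1.5.0-p1) on RefSeq gene models, without normalization. Of 24470 genes, edgeR (4.0.16, R 4.3.3) tested 15577 after filterByExpr (minimum count 10), with TMM and the quasi-likelihood F-test. P-values were adjusted by Benjamini-Hochberg over all genes tested, and genes at FDR under 0.05 are termed called. Standard errors were derived from the F statistic. CPM used TMM-scaled totals, and exon lengths came from GENCODE M21 transcripts linked to RefSeq. A pseudocount of 0.5 was added in log2 ratios, and 2 as prior count in log2 CPM profiles. DESeq2 (1.42.0), limma-voom (limma 3.58.1), other filters and factors, a block for replicate number, and fits without single samples were alternatives. The fits were tested on simulated data. The same replicate numbers in both groups were not taken as pairs in the main fit.

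The members and gene lists were chosen with earlier results of these data known. Genes named were the members, the reference genes, checks of labels, partner genes at p under 0.05 or highest per role, genes of lowest p or highest level in the other lists, and the 3 nearest profiles per member. Others were chosen after their values were seen. Of the lists, 1 gene, Meiosin, was not matched, and 1 partner gene is not reported here. Control replicate 1 was the shallowest library, each sample was a pool, and the labels give no batch. The counts set the precision, and intervals cover counting error only.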

Additional observations from a re-analysis of the deposited data

How the results depend on the processing

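The direction of all 4 members, of Ddx4 and of Dazl was the same in every alternative run, and no edgeR or limma-voom fit called any. DESeq2 moved 2 members past the threshold, Nodal (-0.95) and Tdgf1 (-1.04), and called 2 partner genes. It called 57 genes higher and 54 lower, against 5 and 1 by edgeR. The stricter filter called 3 higher, limma-voom 2 lower and no filter on low counts 2 lower. The cause was not tested. Same-numbered samples deviated from their group means with correlations of -0.20, -0.27 and -0.13. These values showed no pairing, but with 3 samples per group they cannot exclude it. A fit with the replicate block called 2 higher and 1 lower.

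With each sample left out in turn, edgeR calls numbered 1 to 5 higher and 1 to 3 lower. The log2 fold change ranged from -1.18 to -0.71 for Nodal, -1.43 to -0.76 for Tdgf1, -1.45 to -0.66 for Lefty1 and -1.20 to -0.70 for Lefty2 over edgeR and DESeq2, lowest without cKO replicate 1 and highest without cKO replicate 2. Leaving out samples in DESeq2 was chosen after seeing the data. It called Nodal without control replicate 1 (-1.15) and cKO replicate 1 (-1.17), Tdgf1 without the same samples (-1.16 and -1.42), and Lefty1 without cKO replicate 1 (-1.44, FDR 1.44e-05). The ratio to Ddx4 plus Dazl ranged from -0.081 to 0.048 for Nodal and -0.072 to 0.028 for Lefty2, changing sign for Nodal without control replicate 2 (0.020) or cKO replicate 1 (0.048) and for Lefty2 without control replicate 1 (0.0055) or cKO replicate 1 (0.028). It ranged from -0.38 to -0.071 for Tdgf1 and -0.21 to -0.033 for Lefty1. Other references moved no ratio across 0. Counts of 67 to 412 limit the ratios of Nodal and Tdgf1.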
